A study of Mus musculus with 2 samples.

Results

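The 10 genes described here mark secretory epithelium (Wfdc2, Muc5b, Lypd2, Cbr2 and Pglyrp1), epithelium of simple type in general (Krt8, Krt18 and Epcam) and ciliated cells (Ccdc153 and Foxj1). They were selected by name among 32285 genes of the RNA feature list, on RNA values of these same libraries, so their RNA levels and their spread over barcodes are given as a description and without a test. The tissue was mouse brain at E18.5, from a C57BL/6 background, with the genotype Ctcf homozygous mutation, introduced by CRISPR/Cas9. By SPARC-seq, which pairs RNA with accessible chromatin through shared barcodes, 1 library of each kind was made. Neither library had a replicate, and a wild-type counterpart was not analysed here, so no value below measures an effect of the mutation. Intervals are given at 95% and account for counting error alone.

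Secretory cells of the airway, nose and glands line mucosal surfaces, where they release gel-forming mucins, protease inhibitors and antimicrobial proteins. Ciliated cells lie among them and move the mucus with motile cilia, whose assembly is switched on by the fork-head factor Foxj1. In the brain itself, motile cilia are carried by ependymal cells and by the epithelium of the choroid plexus, which express Foxj1 without airway mucins. Keratins 8 and 18 pair to form the intermediate filaments of simple epithelia.

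Each barcode was made of 2 segments of 8 bases, and both segments were drawn from the same 50 sequences. The barcodes are read here as spots of a grid that can hold several cells each, and no positions were used. Fragments were found for 2500 barcodes, including all 1993 of the count matrix. Of these 1993, 1992 were kept, with 8711132 unique molecular identifiers (UMIs, each standing for 1 captured RNA molecule) and a median of 4157 UMIs per spot (907 to 12442). In such spots, fewer cells of a type and less RNA per cell cannot be told apart. The 3 second segments that carried most UMIs of the 10 genes are shown whole, because most of the results turn on them:

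Leading second segment: GGCTGAGC
Second segment ranked 2: CCGATTCC
Second segment ranked 3: CGAACGCC

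The leading second segment was shared by 49 spots, the segment ranked 2 by 48 and the segment ranked 3 by 49. Spots of the leading segment had a median of 4995 UMIs against 4131 elsewhere and held 3.27% of all UMIs. The mitochondrial share was 0.764% there and 0.728% elsewhere.

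Promoters of 3 members are printed to show how unlike they are in sequence: a keratin promoter, the promoter of a ciliary gene, and the promoter with the highest GC content among the members. RefSeq (GRCm38.p6) promoters, 250 bases before to 50 bases after the start, were found for 7 of the 10 members, not for Muc5b, Lypd2 and Foxj1. Capitals mark TATAAA on either strand in Krt8 (2 overlapping matches), GTTGCC, the core of the site bound by the ciliogenic RFX factors, in Ccdc153, and CG dinucleotides in Wfdc2.

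Krt8, chr15:102004293-102004592, minus strand: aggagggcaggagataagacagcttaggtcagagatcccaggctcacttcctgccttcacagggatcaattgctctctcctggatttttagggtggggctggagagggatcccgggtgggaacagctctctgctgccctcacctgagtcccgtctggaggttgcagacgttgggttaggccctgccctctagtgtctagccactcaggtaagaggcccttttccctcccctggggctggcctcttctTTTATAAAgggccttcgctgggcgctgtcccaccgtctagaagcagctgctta
Ccdc153, chr9:44240427-44240726, plus strand: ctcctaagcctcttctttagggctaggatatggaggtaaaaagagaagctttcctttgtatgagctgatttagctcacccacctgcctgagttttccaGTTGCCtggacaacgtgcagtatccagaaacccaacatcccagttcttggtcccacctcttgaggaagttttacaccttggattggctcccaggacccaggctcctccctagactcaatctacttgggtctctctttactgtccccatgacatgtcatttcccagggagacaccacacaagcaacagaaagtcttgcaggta
Wfdc2, chr2:164562465-164562764, plus strand: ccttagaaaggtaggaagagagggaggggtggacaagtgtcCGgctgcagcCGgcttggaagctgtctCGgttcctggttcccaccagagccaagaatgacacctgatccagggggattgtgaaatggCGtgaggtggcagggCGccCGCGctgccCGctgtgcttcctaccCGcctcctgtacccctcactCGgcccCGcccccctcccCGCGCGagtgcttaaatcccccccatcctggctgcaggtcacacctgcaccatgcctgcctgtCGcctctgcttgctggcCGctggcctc

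Among the 7 matched promoters, Wfdc2 was richest in GC (65.3%, 16 CG dinucleotides) and Krt18 next (61.3%, 17). Ccdc153 was poorest, with 49% GC and 1 CG dinucleotide, and the medians over 32851 promoters were 52.7% and 7. Searched on both strands, TATAAA occurred in 13.6% of all promoters of this length, GTTGCC in 12.5% and TGTTTA, the fork-head core, in 13.4%. Among the 7 matched members TATAAA was found in Krt8 alone, where the 2 overlapping matches straddle the RefSeq start, GTTGCC in Ccdc153 alone and TGTTTA in Epcam alone. These RefSeq starts are not always the GENCODE starts used for accessibility below, and for Krt8 the latter lies elsewhere, at 102004482.

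All 10 genes were detected at low levels, with 3431 UMIs in all, of which 2141 came from secretory, 906 from epithelial and 384 from ciliated members. Levels are given as UMIs and as CPM (UMIs of the gene per 1000000 UMIs of the spots), which are not scaled to gene length. Among the secretory members, Pglyrp1, a peptidoglycan-binding antibacterial protein (ENSMUSG00000030413, chr7:18871331-18890459), had 600 UMIs, 68.9 CPM (63.5 to 74.6), in 21.3% of spots. Cbr2, a carbonyl reductase abundant in club cells of the lung (ENSMUSG00000025150, chr11:120729489-120732114), had 513 UMIs, 58.9 CPM (53.9 to 64.2), in 17.4% of spots. Wfdc2, a secreted protein with protease-inhibitor domains (ENSMUSG00000017723, chr2:164562413-164568510), had 489 UMIs, 56.1 CPM (51.3 to 61.3), in 15.1% of spots. Lypd2, a member of the Ly6 family (ENSMUSG00000022595, chr15:74732247-74734329), had 319 UMIs, 36.6 CPM (32.7 to 40.9), in 10.9% of spots. Muc5b, a gel-forming mucin (ENSMUSG00000066108, chr7:141839070-141873084), had 220 UMIs, 25.3 CPM (22 to 28.8), in 7.63% of spots.

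Of the epithelial members, Krt8 (ENSMUSG00000049382, chr15:101996698-102004482) had 367 UMIs, 42.1 CPM (37.9 to 46.7), in 13.9% of spots. Its partner Krt18 (ENSMUSG00000023043, chr15:102028180-102032027) had 393 UMIs, 45.1 CPM (40.8 to 49.8), in 14.3% of spots. Epcam, an adhesion molecule of epithelial cells (ENSMUSG00000045394, chr17:87635979-87651129), had 146 UMIs, 16.8 CPM (14.2 to 19.7), in 6.33% of spots. Of the ciliated members, Foxj1 (ENSMUSG00000034227, chr11:116330704-116335399) had 213 UMIs, 24.5 CPM (21.3 to 28.0), in 9.39% of spots. Ccdc153, a coiled-coil protein of ciliated cells (ENSMUSG00000070306, chr9:44240676-44247306), had 171 UMIs, 19.6 CPM (16.8 to 22.8), in 6.38% of spots. Most positive spots held a single UMI, from 74.7% of them for Wfdc2 to 88.8% for Foxj1, and the highest count in any spot was 17, for Wfdc2. No member was detected in 727 spots, and 684 spots held UMIs of exactly 1 member.

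A small set of spots nevertheless carried much of the signal. The leading second segment held 28.6% (27.1 to 30.1) of the members' UMIs in 2.46% of the spots, and the 3 leading segments 43.1%. With each spot counted once per gene in place of its UMIs, the share of the leading segment was 14.2%. It was the segment with most UMIs for each of the 10 genes. All 10 had a share of their UMIs there at least 2 times that of the RNA as a whole, and 7.71% of 12944 genes with at least 50 UMIs did so. The segment was chosen on these same UMIs, so nothing is read from that difference. Over first segments the UMIs were spread more evenly, and no first segment carried more than 6.85% of the UMIs of any member.

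By the share of a gene's own UMIs that lay in the leading segment, Muc5b came first, with 45.5% (38.7 to 52.3). Wfdc2 followed with 36.0% (31.7 to 40.4), Ccdc153 with 32.7% (25.8 to 40.3) and Lypd2 with 31.7% (26.6 to 37.1). Krt8 (27.2%), Pglyrp1 and Cbr2 (both 26.3%) and Krt18 (24.7%) came next. Intervals of neighbours in this order overlapped throughout. Epcam had 18.49% (12.6 to 25.8) and Foxj1, the ciliogenic factor, came last at 14.6% (10.1 to 20), and the intervals of the 2 ciliated members did not overlap. This order depended on the counting. With each spot counted once, Ccdc153 (25.2%) and Muc5b (25%) came first and Pglyrp1 (10.1%) last, and over the 3 leading segments Wfdc2 (53.8%) came first and Epcam (28.1%) and Foxj1 (28.2%) last.

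The level in the leading segment over that in all other spots was 24.7-fold (18.7 to 32.5) for Muc5b, the highest among the 12944 genes. Wfdc2 was 16.7-fold higher (13.8 to 20.1), Ccdc153 14.4-fold (10.3 to 20) and Lypd2 13.7-fold (10.7 to 17.5). Krt8 (11.1-fold), Pglyrp1 and Cbr2 (both 10.6-fold), Krt18 (9.71-fold), Epcam (6.72-fold) and Foxj1 (5.05-fold, 3.33 to 7.41) were lower. All 10 were at 2-fold or more with an interval above 1, as were 5.99% of the 12944 genes, whose median was 0.958-fold. The segment was chosen on the members' own UMIs, so nothing is read from this count or from the members' folds and ranks.

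**Figure D1:**
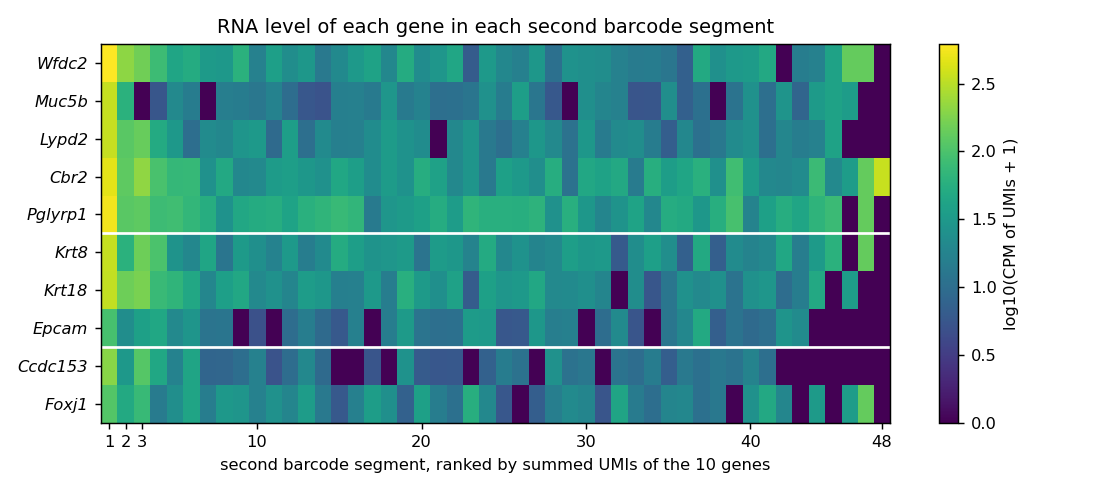
RNA level of each gene (rows, secretory, epithelial and ciliated members separated by white lines) in each of 48 second barcode segments (columns, ranked by summed UMIs of the 10 genes), as log10 of CPM plus 1. The leftmost column is the brightest in every row except that of Foxj1, where a segment of 4 spots with 1 UMI exceeds it, Muc5b is at 0 in the column ranked 3, and the 4 rightmost columns hold fewer than 20 spots each.

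The second segments ranked 2 and 3 followed at a distance and differed in make-up. Wfdc2 had 176 UMIs in the leading segment, 55 in the segment ranked 2 and 32 in the segment ranked 3. For Muc5b the same counts were 100, 16 and 0. The absence of Muc5b UMIs in the segment ranked 3 allows up to 14.2 CPM there (3 UMIs), against 352 CPM in the leading segment. Cbr2 had 135, 33 and 45 UMIs, and Lypd2 101, 32 and 29. Krt18 had 97, 40 and 36 UMIs and Krt8 100, 16 and 31, so the keratin pair was near parity in the leading segment and not in the segment ranked 2. Ccdc153 had 56, 8 and 24 UMIs, and Foxj1 31, 13 and 16.

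Outside the 3 leading segments, 1952 member UMIs remained, spread over all 45 other segments. Their level there was 246 CPM (235 to 257) for the 10 genes together, against 3449 CPM in the leading segment. Pglyrp1 had 384 UMIs there, Cbr2 300, Wfdc2 226, Krt8 and Krt18 220 each, Lypd2 157, Foxj1 153, Epcam 105, Muc5b 104 and Ccdc153 83.

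Within the leading segment the signal ran through nearly all spots. Summed member UMIs ranged from 1 to 61 over its 49 spots, with a median of 16, and the number of members detected per spot from 1 to 10, with a median of 7. Wfdc2 ranged from 0 to 17 UMIs per spot with a median of 3 and was seen in 46 of the 49 spots. Muc5b ranged from 0 to 13 with a median of 1, in 38 spots, Krt8 from 0 to 7 with a median of 2, in 41 spots, and Ccdc153 from 0 to 6 with a median of 1, in 32 spots. Foxj1 and Epcam each ranged from 0 to 3 with a median of 0, in 21 and 17 spots. The highest spots were secretory in the main: the top spot held 49 secretory, 6 epithelial and 6 ciliated UMIs.

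At least 3 members were detected in 253 spots (12.7%), of which 48 lay in the leading segment, 103 in the 3 leading segments and 150 outside them. At least 7 members were detected in 44 spots, 34 of them in the leading segment and 43 in the 3 leading segments. All 10 were detected in 3 spots, each of the leading segment. Spots with at least 3 members were also deeper, with a median of 5475 UMIs against 3984.

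Secretory and ciliated genes were both detected in more spots of the leading segment than elsewhere, as follows from the higher levels by which the segment was ranked. Every one of its 49 spots held a secretory UMI, 38 (77.6%) held a ciliated UMI, and those 38 (63.4 to 88.2%) held both. Outside the leading segment, 46.2% of 1943 spots held a secretory UMI, 12.7% a ciliated UMI and 6.90% (5.81 to 8.12) both. Thinned to 2000 UMIs per spot, which left 49 and 1782 spots, the share with both was 43.4% in the leading segment and 2.0% outside. The share with a secretory UMI was then 97.7% and 27.1%, and with a ciliated UMI 44.1% and 6.42%. With nearly all its spots holding a secretory UMI, the share with both in the leading segment is set by the ciliated share, and nothing on co-detection is read from it. Away from the 3 leading segments, 49.3% of spots with a ciliated UMI held a secretory one, against 43.8% of spots without. The spots with a ciliated UMI were also deeper there, with a median of 4732 UMIs against 3985. Their secretory member level was 147.6 CPM against 147.3 CPM in spots without, with an interval of 0.842 to 1.19 for the ratio. No link between the groups is therefore read from these shares.

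**Figure D2:**
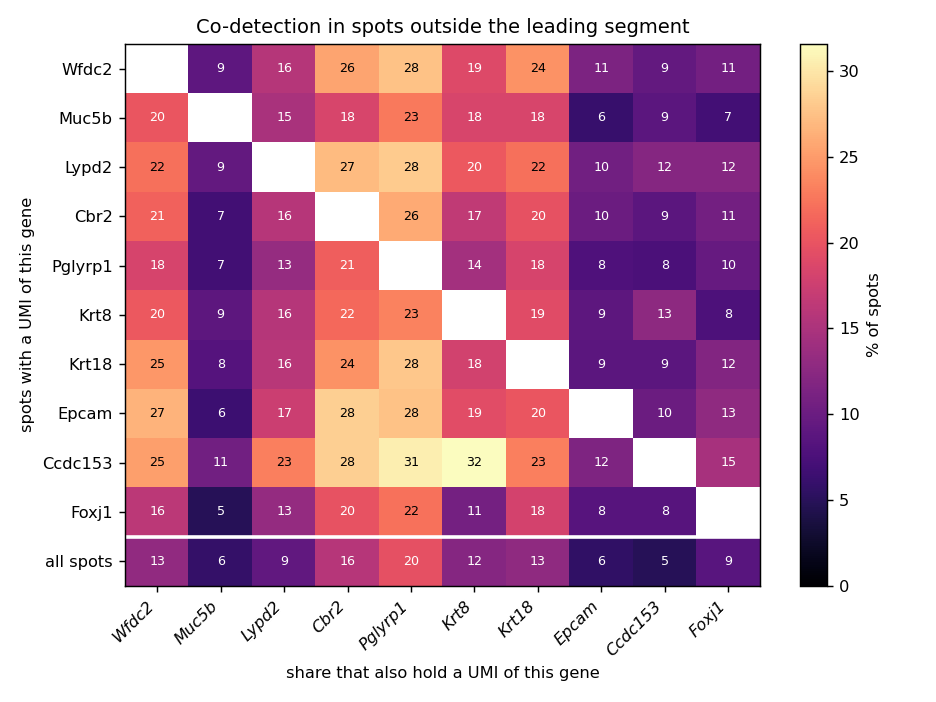
Share of the spots with a UMI of the row's gene that also held a UMI of the column's gene, among 1943 spots outside the leading second segment, with the share among all of these spots in the bottom row. Ccdc153 spots held Krt8 in 31.6%, above the 12.1% of all spots. Foxj1 spots held Krt8 in 10.8% and Krt18 in 18.1%, beside 12.1% and 12.9% of all spots.

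Pairs of members were compared outside the leading segment, over 1943 spots, without thinning. Of the spots with Ccdc153, 31.6% also held Krt8, while 12.1% of all these spots did. Lypd2 was likewise found in 23.2% of Ccdc153 spots against 9.32% of all, and Wfdc2 in 26.6% of Epcam spots against 13.1%. Outside all 3 leading segments, Ccdc153 spots had 1.43 times (1.01 to 1.98) the epithelial member level of spots without Ccdc153. Their secretory member level was 1.17 times (0.906 to 1.49), and that of Epcam spots was 1.16 times (0.921 to 1.45) the level of spots without Epcam. Seen from the other side, Krt8 spots had 1.38 times (0.953 to 1.95) the ciliated member level of spots without Krt8. Such ratios were computed for every member with every member group and are uncorrected. Intervals also left out 1 for Wfdc2 with epithelial members (1.29, 1.02 to 1.63) and Krt18 with secretory members (1.19, 1.01 to 1.40). All the others included 1. Foxj1 was in 8.54% of all 1943 spots. Among spots of the other members its share ran from 7.02% (Muc5b) and 7.66% (Krt8) to 14.7% (Ccdc153). Its share in spots of genes at large was not computed. Outside the 3 leading segments, the Foxj1 level in Ccdc153 spots was 0.999 times (0.423 to 2.02) that of spots without Ccdc153. Foxj1 and Ccdc153 were seen in the same spot 29 times, 15 of them in the leading segment and 7 outside the 3 leading segments. Spots with Ccdc153 outside those segments were deeper than the others, with a median of 5148 UMIs against 4044, and the part of depth in these shares was not tested.

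The balance of ciliated against secretory UMIs is described by segment, on the same UMIs that chose the genes and ranked the segments. Over all spots, ciliated members made 15.2% (13.8 to 16.7) of the ciliated and secretory UMIs. The share was 11.5% (9.31 to 14.0) in the leading segment and 11.1% (7.01 to 16.5) in the segment ranked 2. It was 23.3% (17.2 to 30.3) in the segment ranked 3 and 16.8% (14.9 to 18.8) in the other 45 segments. The odds of a ciliated UMI against a secretory UMI in the segment ranked 3 were 2.33 times (1.49 to 3.60) those in the leading segment, and in the other 45 segments 1.55 times (1.19 to 2.04).

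The genes within each group were set against the leading segment in the same way, as a description of 24 odds ratios in all, of which those whose interval left out 1 are printed, with the others of Foxj1 per Ccdc153. Muc5b per other secretory UMI was 0 in the segment ranked 3, where 0 of 132 secretory UMIs were Muc5b and 100 of 670 in the leading segment (ratio 0, up to 0.165). In the other 45 segments Muc5b stood at 0.556 times (0.410 to 0.753) and Wfdc2 at 0.671 times (0.533 to 0.847) their odds in the leading segment. Pglyrp1 stood at 1.58 times (1.27 to 1.98) and Cbr2 at 1.36 times (1.08 to 1.73) there, and Cbr2 at 2.05 times (1.33 to 3.13) in the segment ranked 3. Krt8 per Krt18 was 0.389 times (0.190 to 0.766) that of the leading segment in the segment ranked 2, with 16 and 40 UMIs.

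The ratio of Foxj1 to Ccdc153 UMIs varied over segments. The leading segment held 31 Foxj1 and 56 Ccdc153 UMIs, whereas the other 45 segments held 153 and 83, an odds ratio of 3.32 (1.93 to 5.77). For the segments ranked 2 and 3 the intervals included 1, with 13 and 8 UMIs (2.90, 0.990 to 9.05) and 16 and 24 UMIs (1.20, 0.515 to 2.77), and within the other 45 the segment ranked 4 held 3 Foxj1 and 10 Ccdc153 UMIs.

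**Figure D3:**
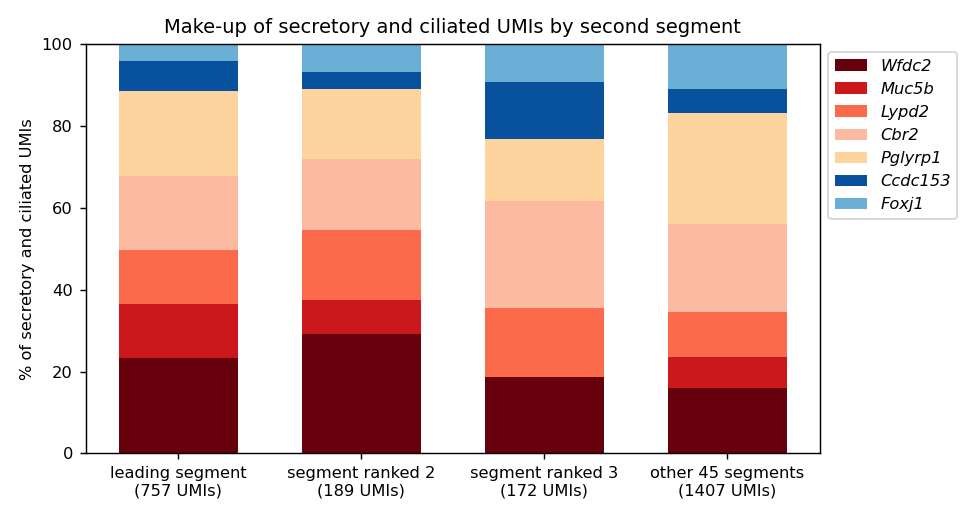
Make-up of the secretory (reds) and ciliated (blues) UMIs in the leading second segment, the segments ranked 2 and 3 and the other 45 segments, in percent of the UMIs given under each bar. Muc5b is missing from the bar of the segment ranked 3, where the ciliated share is 23.3%, and Foxj1 outweighs Ccdc153 in the other 45 segments.

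Other genes of the same kinds were also higher in the leading segment. Their lists were chosen with earlier results of these data known, and some of the genes named below by their fold in this segment. The counts and folds are therefore a description. Of 20 other secretory airway genes, 7 had at least 50 UMIs and 6 of these were at 2-fold or more with an interval above 1, with a median of 8.59-fold. Over all 12944 genes the share so raised was 5.99% and the median 0.958-fold, against which this count and those of the lists below are to be read. Among them, Bpifa1, a secreted protein of nasal and upper airway epithelium, was 8.59-fold higher (7.15 to 10.3, 703 UMIs), and the antimicrobial lectin Reg3g 21.2-fold (15.4 to 29.1). The mucin Muc16 was 13.7-fold higher (8.06 to 22.6), and Agr2, a protein disulphide isomerase needed for mucin folding, 19-fold (9.92 to 35.7, 46 UMIs). Scgb1a1, the defining club cell secretoglobin, had 0 UMIs in all spots, which allows up to 0.344 CPM.

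Of 20 other junction and keratin genes, 11 of 12 tested were at 2-fold or more, with a median of 7.2-fold. Krt7 was 11.3-fold higher (7.13 to 17.3), the epithelial transcription factor Grhl2 10-fold (5.89 to 16.5), Krt19 8.60-fold (6.52 to 11.2) and the basal-layer keratin Krt15 6.64-fold (4.61 to 9.36). Of 28 other ciliated genes with a row in the files, 17 of 21 tested were at 2-fold or more, with a median of 4.51-fold. Sntn, a protein of the ciliary tip, was 24.1-fold higher (10.7 to 53.4, 29 UMIs), Cfap126 19.2-fold (11 to 33), Tmem212 16.3-fold (10.7 to 24.4) and Tppp3, a tubulin-binding protein, 4.49-fold (3.77 to 5.31). The ciliogenic factor Rfx3 was at 0.830-fold (0.584 to 1.14), with 1395 UMIs.

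Lists of markers of other tissues were higher in the leading segment in some cases and lower in others, and their part in the members' values was not tested. Skeletal muscle genes summed to 2.02-fold (1.95 to 2.09), with 6 of 12 at 2-fold or more, and fibroblast genes to 1.47-fold (1.36 to 1.59), with 1 of 7. Neuronal genes summed to 0.677-fold (0.637 to 0.719), the lowest level of that list in any of the 48 segments. Olfactory epithelium genes summed to 1.12-fold (0.855 to 1.44), with 1 of 6 at 2-fold or more. The olfactory neuron marker Omp had 4 of its 87 UMIs there, and Sec14l3 of the same list 13 of its 63 (7.70-fold, 3.84 to 14.4). Choroid plexus genes summed to 0.616-fold (0.539 to 0.700), a sum made mostly of Ttr (0.582-fold), while the median of the 6 tested was 1.32-fold. For pituitary genes the sum was at 0.683-fold (0.486 to 0.934), for macrophage genes at 0.895-fold and for erythroid genes at 0.857-fold. Neutrophil genes had 59 UMIs in all and summed to 2.74-fold (0.856 to 6.81), of which Lcn2, an antimicrobial protein also made by epithelia, gave all 5 UMIs in the leading segment.

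The genes most like each member were taken by Pearson correlation of log2(CPM + 20) over the 48 segments. These correlations share the leading segment and are a description. The genes differed in kind. Wfdc2 was most like Smim22 (0.75), Muc5b most like the ciliary gene Cfap126 (0.68) and then the glycoprotein gene Msln (0.66), and Lypd2 most like AU040972 (0.77) and Adam28 (0.75). Cbr2 was most like Mecom (0.75) and then the ribosomal protein gene Rps15 (0.70), Pglyrp1 most like Riiad1 (0.65), Krt8 most like Rp1 (0.72), with the club cell gene Cyp2f2 at 0.66, and Krt18 most like Ccdc162 (0.80), with Reg3g at 0.76. Epcam was most like Cfap43 (0.69) and Krt4 (0.67), followed by the muscle gene Tnni1 (0.65). Ccdc153 was most like Spaca9 (0.79) and Cfap43 (0.76), both genes of the ciliary axoneme. Foxj1 was most like Oaf (0.66), followed by Lrrc71 (0.61) and Fhad1 (0.59).

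Away from the 3 leading segments, some members were found with markers of other tissues. These 120 ratios of a list's level in spots with and without a member, of which 39 had intervals above 1 and 12 below 1, were chosen after the data had been seen and are uncorrected. Epcam stood out: spots with an Epcam UMI had 4.61 times (4.11 to 5.16) the pituitary level of spots without, and 4.71 times (4.16 to 5.33) without the segment highest in that list. Pomc, the precursor of corticotropin, was at 417 CPM with Epcam and 80.6 CPM without, and Gh, growth hormone, at 285 and 60.0 CPM. Cga, the shared subunit of the glycoprotein hormones, was at 57.8 and 15 CPM. The other junction and keratin genes were at 1.64 times (1.35 to 1.99) in Epcam spots.

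Foxj1 spots had 1.44 times (1.35 to 1.52) the choroid plexus level, and 1.36 times (1.28 to 1.45) without the segment highest in it. Epcam spots were as high, at 1.46 times (1.37 to 1.56), and the spots of Krt18 (1.23), Krt8 (1.21), Muc5b (1.16), Ccdc153 (1.14) and Wfdc2 (1.10) also had intervals above 1, while Cbr2 spots were at 0.737 times (0.697 to 0.779). Ttr, the transthyretin secreted by choroid plexus, gave nearly all of the choroid plexus sum, and in the Foxj1 comparison was at 1835 CPM with Foxj1 and 1256 CPM without. It was the only gene of that list with an interval above 1 in Foxj1 spots (1.46 times, 1.38 to 1.55). The other genes lay on both sides of 1 with intervals that included 1. Among them were Folr1 at 0.714 times (0.301 to 1.45), Slc4a5 at 0 (up to 1.05) and Otx2 at 1.15 times (0.674 to 1.84). The other ciliated genes were at 1.02 times (0.917 to 1.14) in Foxj1 spots and at 1.18 times (1.03 to 1.34) in Ccdc153 spots. Beside Epcam, the pituitary level was 1.67 times (1.45 to 1.92) in Lypd2 spots, 1.5 times (1.24 to 1.79) in Ccdc153 spots and 1.30 times (1.13 to 1.48) in Krt8 spots, and 0.732 times (0.597 to 0.889) in Foxj1 spots. The muscle level ran from 1.04 times (0.994 to 1.08) in Muc5b spots to 1.38 times (1.33 to 1.44) in Ccdc153 spots. The fibroblast level ran from 1.03 times (0.965 to 1.10) in Foxj1 spots to 1.31 times (1.24 to 1.37) in Krt18 spots. Such ratios were not computed for spots of other genes, so these ranges are not read as particular to the members. Without the segment highest in the list, Lypd2 was at 1.43 and Krt8 at 1.15 (0.986 to 1.34) for pituitary, and Ccdc153 at 1.20 for muscle. Pglyrp1, also a neutrophil granule protein, was found with neutrophil genes at 1.03 times (0.456 to 2.12), and Cbr2 with macrophage genes at 0.945 times (0.802 to 1.11).

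Chromatin accessibility took no part in ranking the segments or counting members per spot. Fragments overlapping 1 kb on each side of a transcription start site (TSS) were counted in the same spots and scaled to the promoter fragments of each group. For 8 of the 10 members the promoter level in the leading segment was at least 1.5 times that in the other spots, as it was for 18.6% of 22011 promoters. For 3 of the 10 the interval also lay above 1, against 4.79% of promoters, and the median ratio over all promoters was 0.975.

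Lypd2 had 12 fragments in the leading segment and 107 elsewhere, a ratio of 3.52 (1.77 to 6.41). Krt8 had 8 and 72, a ratio of 3.49 (1.45 to 7.25), in a window that also holds the start of Gm36026, and Krt18 had 7 and 75, a ratio of 2.93 (1.14 to 6.35). With 500 bases on each side of the TSS the intervals of Krt8 (3.55, 0.919 to 9.91) and Krt18 (2.97, 0.776 to 8.19) included 1, and that of Epcam (4.0, 1.03 to 11.3) did not. With 2 kb on each side, or over the 3 leading segments, the Krt18 interval also included 1. Intervals of the others included 1: Epcam at 2.31 (0.727 to 5.66), Wfdc2 at 1.95 (0.765 to 4.14), Ccdc153 at 1.94 (0.613 to 4.72), Pglyrp1 at 1.85 (0.829 to 3.60) and Cbr2 at 1.82 (0.716 to 3.86). Muc5b, highest by RNA ratio, had 4 fragments in the leading segment and a promoter ratio of 1.23 (0.329 to 3.25). A difference in accessibility was not detectable for it at this depth.

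Foxj1 had by far the most promoter fragments, 337 against 73 to 162 for the other members, placing it at the 77.1 percentile of coding genes. Its 11 fragments in the leading segment gave a ratio of 1.06 (0.524 to 1.92), beside an RNA ratio of 5.05. By group, epithelial members were at 2.92 (1.75 to 4.63, 20 fragments), secretory members at 2.06 (1.45 to 2.84, 39 fragments) and ciliated members at 1.24 (0.699 to 2.03, 16 fragments). Summed by group, secretory and epithelial promoter levels were each highest in the leading segment and second highest in the segment ranked 3, among 48. Taken singly, only the Krt8 promoter was highest in the leading segment. For the other secretory and epithelial members that segment ranked from 2 (Lypd2 and Krt18) to 16 (Muc5b). The leading segment also had more fragments per spot, a median of 30085 against 21532, and more of them short, 53.2% against 47.2%. The part of these in the ratios was not tested.

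**Figure D4:**
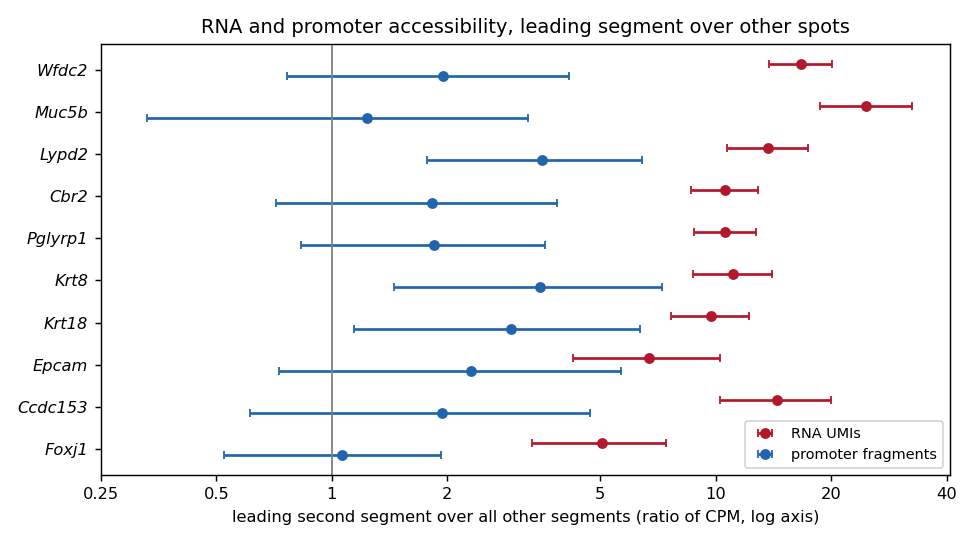
Ratio of the level in the leading second segment to that in all other spots for RNA UMIs (red) and promoter fragments (blue), on a log axis, with 95% intervals for counting error. Every RNA ratio lies above 5, the promoter ratios lie between 1.06 and 3.52, and the blue intervals of Lypd2, Krt8 and Krt18 lie above 1.

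Spots with UMIs of at least 3 members gave more fragments and narrower intervals, in a comparison added after the data had been seen. In these 253 spots, 7 of 10 members were at 1.5-fold or more, against 6.31% of promoters, and 6 of 10 also had intervals above 1, against 4.28%. Krt8 was at 2.78 (1.71 to 4.44), Wfdc2 at 2.36 (1.58 to 3.48), Epcam at 1.89 (1.09 to 3.18), Lypd2 at 1.83 (1.20 to 2.74), Cbr2 at 1.78 (1.18 to 2.64) and Krt18 at 1.71 (1.01 to 2.81). Foxj1 was at 1.01 (0.755 to 1.33) and Ccdc153 at 0.927 (0.493 to 1.63). Outside the 3 leading segments, epithelial promoters were at 1.84 (1.26 to 2.62), secretory promoters at 1.35 (1.05 to 1.70) and ciliated promoters at 0.904 (0.642 to 1.24). Lypd2 turned to 0.702 (0.293 to 1.45) there, with 8 fragments.

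The authors' pipeline had called 21 peaks within 10 kb of the genes, and 1 of the 21 reached a ratio of 1.5 with an interval above 1, beside 9.57% of 85932 peaks. The peak over the Foxj1 TSS had 500 cut sites and a ratio of 1.09 (0.632 to 1.77), and the peak over the Pglyrp1 TSS had 208 and a ratio of 1.74 (0.853 to 3.18). A peak 4782 bases downstream of the Cbr2 TSS, beyond the end of the gene, had 292 cut sites and a ratio of 2.04 (1.19 to 3.29), and was the one that passed. Another, centred at -7335 bases from the Foxj1 TSS, had 0 of its 218 cut sites in the leading segment (ratio 0, up to 0.531), the only one of the 21 with an interval below 1. The peak in the Wfdc2 promoter window was at 0.707 (0.191 to 1.84), and that in the Krt8 promoter window at 2.02 (0.854 to 4.11). None of the 21 peaks belonged to Lypd2, Krt18 or Epcam, so their promoter ratios have no peak beside them.

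Promoters of the other junction and keratin genes were at 2.18 (1.84 to 2.58) in the leading segment, with 6 of 18 tested at 1.5-fold or more and an interval above 1, beside 4.79% of all promoters. Those of the other secretory airway genes were at 1.42 (1.05 to 1.87), with 1 of 13, and those of the other ciliated genes at 1.10 (0.946 to 1.27), with 1 of 26, both near that share. Neuronal promoters were at 0.547 (0.388 to 0.750), fibroblast promoters at 1.63 (1.19 to 2.19) and muscle promoters at 1.40 (1.06 to 1.80). Pituitary promoters summed to 1.62 (1.10 to 2.29), with a median of 1.02 and 1 of 7 called, beside an RNA sum of 0.683-fold. Whereas RNA of the other ciliated genes was 4.24-fold higher (3.9 to 4.6), their promoters and those of the ciliated members had intervals that included 1.

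**Figure D5:**
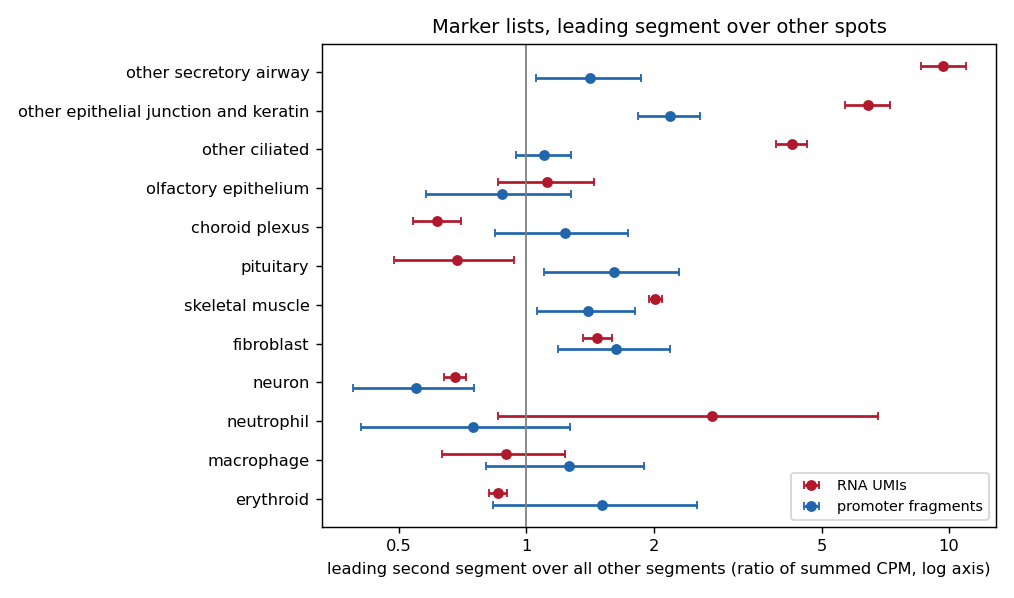
Ratio of the summed level of each marker list in the leading second segment to that in all other spots, for RNA UMIs (red) and promoter fragments (blue), on a log axis with 95% intervals for counting error. The 3 lists at the top are highest by RNA, at 9.70, 6.42 and 4.24, and the junction and keratin list is highest by promoter fragments, at 2.18.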

How the data were processed

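RNA and accessibility libraries of 1 tissue were used. The headers name cellranger-arc 2.0.1, run by the authors on mm10 (GRCm38), and the submitters' processing notes name Seurat 4.0. The deposited matrix holds raw counts, UMI counts per gene and cut-site counts per peak, and the deposited fragment file holds fragments with duplicates collapsed, with the count of read pairs behind each. No other normalisation had been applied. SPARC-seq steps before these files are not given in the sources used here.

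Kept spots had between 500 and 6000 genes, and mitochondrial UMIs up to 20%. The members and all gene lists were chosen with earlier results of these data known. Second segments were ranked by summed member UMIs. Named genes were the 10 members, the 2 genes of each list with most UMIs and up to 3 with the highest fold among those with at least 20 UMIs, and the 3 genes most like each member. Not all of these are printed. Genes needed 50 UMIs and promoters 50 fragments to be tested against the 2-fold and 1.5-fold limits. TSSs were those of principal transcripts in GENCODE (GRCm38). Intervals are exact Poisson (levels), Clopper-Pearson (shares) and conditional binomial (ratios) at 95%. Thinned shares are hypergeometric expectations. With 1 library per assay no test was made. The RNA depth was 8711132 UMIs and the accessibility depth 46993860 fragments in kept spots. Python 3.11.15, numpy 2.4.6, scipy 1.17.1, pandas 2.3.3 and matplotlib 3.10.9 were used, and the steps were tested on simulated data. Alternatives were other filters, windows, counting units, scalings, minimums and groups of spots.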

Additional observations from a re-analysis of the deposited data

Results flagged for a closer look

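Barcodes outside the count matrix carried promoter fragments of the members: 98 fragments lay within 1 kb of the TSS of the 10 genes in 507 barcodes that have accessibility but no RNA counts in the matrix. This is above the 3 that a count of 0 allows, a low bar among so many fragments, and the rate was lower than in kept spots: 16.8 per 1000000 fragments against 27.5. Of these, 53 were at secretory, 18 at epithelial and 27 at ciliated members, among 5833396 fragments. No comparison used these barcodes.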

How the results depend on the processing

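Of 230 recomputed values, 182 were counted as unchanged. These were values within their interval, ratios whose interval included or left out 1 as before, and counts of genes that changed little. A ratio that crossed 1 with both intervals including 1 was also counted as unchanged. Leaving out Gm42418 raised the members' summed level to 415 CPM. The members' share in the leading segment was 43.1% over the 3 leading segments and 14.2% when each spot was counted once per gene. The share of leading-segment spots with secretory and ciliated UMIs was 43.4% after thinning to 2000 UMIs, 22.5% at 1000 and 46.9% with at least 2 UMIs of each, and outside it 2.0%, 0.630% and 0.721%. Without Wfdc2, ciliated members made 18.9% of ciliated and secretory UMIs overall and 15% in the leading segment. With a minimum of 20 UMIs, 1 neutrophil gene reached 2-fold. The Lypd2 promoter ratio turned to 0.702 in spots with at least 3 members outside the 3 leading segments. Promoter intervals came to include 1 for Krt8 and Krt18 with 500 bases on each side (3.55 and 2.97), for Krt8 with short fragments alone (2.28), and for Krt18 with 2 kb (1.96), over the 3 leading segments (1.70) and in spots with at least 3 members outside them (1.35). They came to lie above 1 for Wfdc2 over the 3 leading segments (2.26), for Epcam with 500 bases (4.0), for Cbr2, Pglyrp1 and Epcam with insertions counted (1.99, 1.77 and 2.50), for Wfdc2, Cbr2 and Epcam in spots with at least 3 members (2.36, 1.78 and 1.89), and for Wfdc2 and Cbr2 in such spots outside the 3 leading segments (1.87 and 1.78). The pituitary ratio of Krt8 spots was 1.15 without the segment highest in that list, against 1.30. The causes were not tested. No paired analysis was possible because there was 1 library per assay. Promoter values rest on 4 to 12 fragments per member in the leading segment.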
